A study of Mus musculus with 4 samples.

Results

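The genes described here are 8 markers of differentiated neurons, chosen by symbol for the sensory neurons of the cranial ganglia: Neurod1, Pou4f1, Elavl3, Elavl4, Tubb3, Stmn2, Prph and Nefl. All 8 were measured, by 14 of the 29922 probes, among 16637 named genes. A single probe read each of 3 genes (Tubb3, Stmn2 and Nefl), 2 probes read each of 4 genes, and 3 probes read Elavl4. RNA came from whole mandibles of C57BL/6 mouse embryos at E11.5. The control group was wild-type (2 arrays). The other group, called Bmp4 OE in the labels, overexpressed Bmp4, which encodes a secreted ligand of the BMP pathway, from a conditional allele and was induced with doxycycline for 24 hours (2 arrays). Neither the driver of the Bmp4 allele, nor the cells it is active in, nor any doxycycline given to controls is stated in the labels, so drug, genotype and Bmp4 itself cannot be told apart. No label says that the arrays of a group are separate embryos or litters. Each p-value therefore reflects in part the spread between 2 arrays per group, which could be technical. The limma fit behind the p-values, SEs and intervals also draws on the spread pooled over all probes. It gave 3.59 prior degrees of freedom beside 2 residual ones, so an SE is not the spread of a probe's own arrays alone.

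The mandibular branch of the trigeminal ganglion supplies sensation to the lower jaw. Its neurons arise from placodal ectoderm and neural crest, grow axons into the mandible and depend on growth factors made by the tissue they reach. Their cell bodies lie outside the mandible, in the ganglion, while axons carry a small part of a neuron's RNA. Neuronal RNA in a dissected mandible can therefore come from axons, from parasympathetic precursors that migrate into it, or from ganglion tissue kept in the dissection, and the arrays do not separate these sources. In bulk tissue, fewer cells of a type and less RNA per cell cannot be told apart either.

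Values are log2 intensities that the authors had normalised so that all arrays share 1 distribution, with a lower quartile of 6.79, a median of 7.95 and a maximum of 16. Arrays of 1 group correlated across probes with r = 0.993 in both groups, and arrays of different groups with r of 0.974 to 0.981. The Bmp4 probe read 11.96 and 12.07 in controls and 15.27 and 15.31 in Bmp4 OE samples, which is 9.68-fold higher and in the direction of the labels (limma, adjusted p = 0.00137).

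None of the 8 genes changed at the threshold used, an adjusted p of 0.05 over all probes. In limma 0 of their 14 probes passed, against 14.8% of all probes (6.39% higher and 8.41% lower), and their adjusted p-values ran from 0.0552 to 0.858. At an unadjusted p of 0.05 there were 6 probes, 3 higher and 3 lower in Bmp4 OE samples, where 33.0% of all probes lay below that p. The submitters' own threshold asks for a 2-fold change and an unadjusted p below 0.05, and 0 of the 14 probes met it, beside 1.22% of all probes as higher and 1.41% as lower. The groups did not overlap at 11 probes. Of these, 5 were higher in both Bmp4 OE samples, as were 29.2% of all probes, and 6 were lower, as were 31.0% of all probes, so a separation of the groups is common on the array. The median log2 difference was -0.04 over the 14 probes and 0.33 over the brightest probe of each gene, with a median of 0 over all probes and over all named genes. The intervals of the differences leave room for moderate change in either direction, and a missed threshold does not show that the genes were unaffected.

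**Figure D1:**
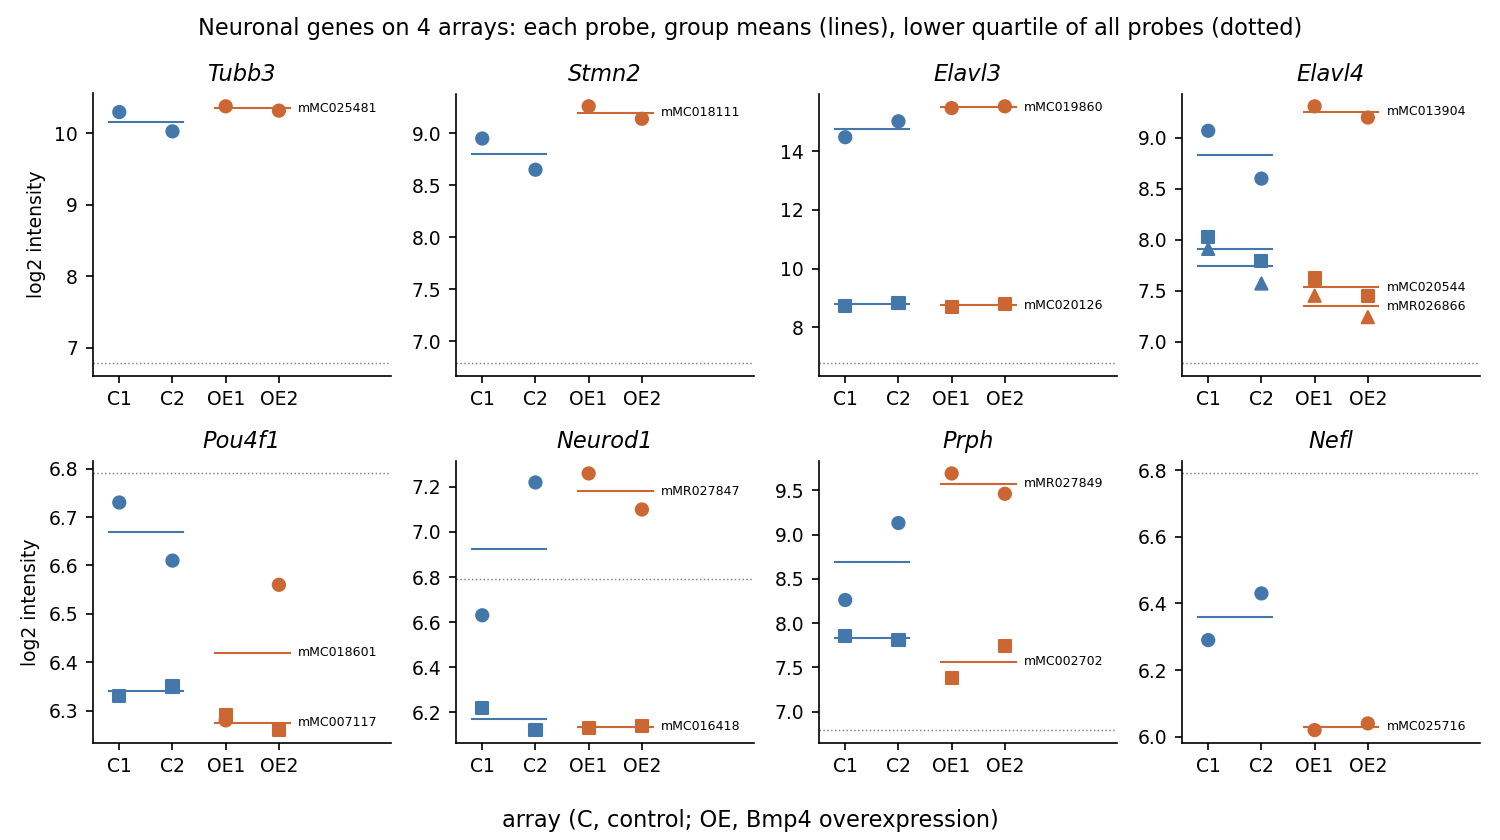
Log2 intensity of each probe (probe name at the right of its points) of the 8 neuronal genes on the 2 control arrays (C1 and C2, blue) and the 2 Bmp4 overexpression arrays (OE1 and OE2, orange), with group means as lines and the lower quartile of all probes, 6.79, as a dotted line. Each panel has its own scale. Probes of Elavl4 and Prph separate the groups in opposite directions, and the Pou4f1 and Nefl values all lie below the dotted line.

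The level of the markers did not decide whether the label of sensory neurons holds. Both transcription factors among these genes, Pou4f1 and Neurod1, were dim. Other factors that specify sensory neurons were brighter, such as Neurog1 (9.47 and 9.83 in controls) and Isl1 (9.35 and 9.30 in controls). Of 19 such factors measured, 3 had means below the lower quartile. Whether a low reading reflects little RNA or the probe itself was not tested. Pou4f1 (Brn3a), a POU-domain factor of differentiating sensory neurons, lay below the lower quartile on all 4 arrays at both probes. Its brighter probe (mMC018601) read 6.73 and 6.61 in controls and 6.28 and 6.56 in Bmp4 OE samples, and the other (mMC007117) read 6.33 and 6.35 against 6.29 and 6.26. Both were slightly lower in the Bmp4 OE samples without overlap, by 0.25 and 0.07 on the log2 scale, with adjusted p-values of 0.261 and 0.702. Neurod1, a basic helix-loop-helix factor that drives neuronal differentiation, had a probe (mMC016418) at 6.22 and 6.12 in controls and 6.13 and 6.14 in Bmp4 OE samples, below the lower quartile throughout. Its brighter probe (mMR027847) read 6.63 and 7.22 in controls against 7.26 and 7.10, with overlapping groups. There the log2 difference of 0.26 became -0.04 without control replicate 1. The genes are called neuronal genes here because the label of sensory neurons was not settled. A level below the lower quartile gives little room to see a fall.

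The RNA-binding proteins Elavl3 and Elavl4 (HuC and HuD), which stabilise neuronal transcripts, did not give 1 answer across their probes: 1 Elavl3 probe came nearest to the threshold and the other lay furthest from it. The brighter Elavl3 probe (mMC019860) read 14.47 and 15.01 in controls and 15.46 and 15.52 in Bmp4 OE samples, so that both Bmp4 OE samples lay above both controls. The log2 difference was 0.75 ± 0.19 (SE of the limma fit, 2 arrays each), with an adjusted p of 0.0552 in limma. This probe passed under 4 of the alternative settings, with adjusted p-values of 0.0275 to 0.0476 in limma. These were cyclic loess, a robust variance prior, a variance trend and a fit without probes below the median. Whether the probe passed therefore depended on the setting. The log2 difference at this probe was 0.48 without control replicate 1 and 1.02 without control replicate 2. Its mean exceeded that of 99.3% of all probes and lay close to the maximum of the scale. The other Elavl3 probe (mMC020126) read 8.74 and 8.83 against 8.69 and 8.81, overlapping, with a log2 difference of -0.04 and a 95% interval of -0.31 to 0.24. Averaged over both probes, Elavl3 had a log2 difference of 0.36 (adjusted p = 0.111). Whether the bright probe reads Elavl3 alone was not tested.

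Elavl4 was read in opposite directions by its 3 probes. The brightest (mMC013904) read 9.07 and 8.60 in controls and 9.31 and 9.20 in Bmp4 OE samples, a log2 difference of 0.42 (95% interval -0.02 to 0.86). Probe mMC020544 read 8.03 and 7.79 against 7.62 and 7.45, and probe mMR026866 read 7.91 and 7.57 against 7.45 and 7.24. At these 2 probes both Bmp4 OE samples lay below both controls, by 0.38 and 0.40 on the log2 scale, with adjusted p-values of 0.116 and 0.146. The difference between probes was tested over all 5526 pairs of probes of 1 gene, a test added after the values were seen, in which 7.73% of pairs passed. The brightest Elavl4 probe differed from mMC020544 by 0.80 ± 0.18 and from mMR026866 by 0.82 ± 0.18 (SE) in its log2 difference (limma, adjusted p = 0.0349 and 0.0314). These were 2 of the 7 pairs of the neuronal genes. The 2 dimmer probes differed from each other by 0.02 ± 0.17 (SE, adjusted p = 0.956). The log2 difference of the brightest probe was 0.66 without control replicate 1 and 0.19 without control replicate 2. Averaged over its 3 probes, Elavl4 had a log2 difference of -0.12 (adjusted p = 0.609), so the sign of the gene depends on the probe. With 1 array left out, where a group has a single array, both pair differences kept their sign at 0.68 to 0.91 and did not pass (adjusted p-values of 0.134 to 0.207), and they did not pass with the replicate number as a block.

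The position of each probe on the transcripts is not known, so no probe could be tied to a transcript. Whether the opposite directions of the Elavl4 probes relate to different transcripts was not tested. RefSeq places starts of Elavl4 transcripts far apart on the minus strand of chromosome 4 (GRCm38.p6). Windows of 250 bases before to 50 bases after a start were available for 6 of the 8 genes, as 9 windows, 4 of them for Elavl4. Stmn2 and Nefl have no window here. To describe the windows, 3 forms of the E-box, the site of basic helix-loop-helix factors such as Neurod1, were searched on both strands. The form CAGCTG stood in 16.3% of all windows, the form CAGATG in 17.2% and the form CAGGTG in 20.2%. The motifs were chosen with the expression values known. At least 1 of them stood in 44.3% of all 32851 windows and in 5 of the 9, which belong to Elavl3, Elavl4 and Pou4f1. Among these 5, 2 Elavl4 windows overlap and hold the same 3 sites, so they are 1 promoter region counted as 2 windows, and a further inner Elavl4 window holds 1 match. A match is a description of these letters and not evidence of binding. The sequences of the outermost Elavl4 start (chr4:110351862-110352161), of an inner Elavl4 start (chr4:110287478-110287777) and of the Elavl3 start (chr9:22051974-22052273, minus strand), whose bright probe came nearest to the threshold, are shown 5′ to 3′ with E-box matches in capitals.
Elavl4 outer start: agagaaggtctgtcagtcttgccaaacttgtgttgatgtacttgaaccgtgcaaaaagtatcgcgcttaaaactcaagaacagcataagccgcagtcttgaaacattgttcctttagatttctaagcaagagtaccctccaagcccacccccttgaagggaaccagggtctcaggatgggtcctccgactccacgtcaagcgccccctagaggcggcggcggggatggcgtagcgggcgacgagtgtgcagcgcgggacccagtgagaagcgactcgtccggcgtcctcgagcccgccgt
Elavl4 inner start: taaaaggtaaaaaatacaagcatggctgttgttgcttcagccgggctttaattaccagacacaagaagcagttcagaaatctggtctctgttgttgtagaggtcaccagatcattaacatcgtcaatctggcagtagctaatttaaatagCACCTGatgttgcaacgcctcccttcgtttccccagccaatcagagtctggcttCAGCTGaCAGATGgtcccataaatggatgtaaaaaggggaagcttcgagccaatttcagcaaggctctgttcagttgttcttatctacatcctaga
Elavl3 start: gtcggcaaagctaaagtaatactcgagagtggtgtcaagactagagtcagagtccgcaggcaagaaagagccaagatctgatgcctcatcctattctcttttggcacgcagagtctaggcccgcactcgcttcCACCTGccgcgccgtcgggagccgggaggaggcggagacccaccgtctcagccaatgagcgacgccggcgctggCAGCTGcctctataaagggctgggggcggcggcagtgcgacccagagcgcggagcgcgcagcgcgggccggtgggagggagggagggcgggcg
The outer Elavl4 window holds no match. The inner one holds 3 matches that do not overlap, with first bases at -100, -46 and -39 from the start, and 3.00% of all windows hold 3 or more. No window of the neuronal genes holds more matches, so that share does not measure how rare a window picked in this way is. The Elavl3 window holds 2, at -117 and -43, and 13.1% of all windows hold 2 or more.

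**Figure D2:**
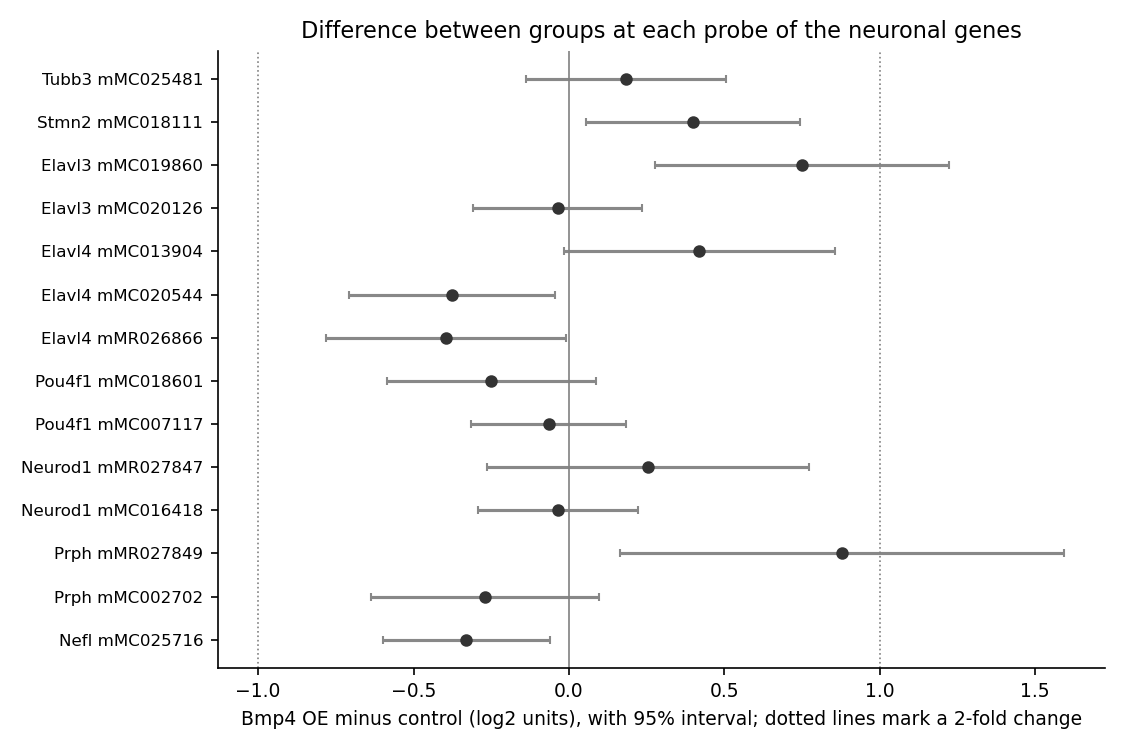
Difference between groups (Bmp4 OE minus control, log2 units) at each of the 14 probes of the neuronal genes, with the 95% interval of the limma fit and dotted lines at a 2-fold change. The intervals of 8 probes include 0, and the 3 probes of Elavl4 and the 2 of Prph lie on both sides of it.

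The cytoskeletal markers Tubb3 and Stmn2 showed small differences. Tubb3, the neuronal beta-tubulin recognised by the antibody TuJ1, read 10.30 and 10.03 in controls and 10.38 and 10.32 in Bmp4 OE samples. Both Bmp4 OE values lay just above the controls, with a log2 difference of 0.19 (95% interval -0.14 to 0.51, adjusted p = 0.375), which is less than the 0.27 between the controls. It was 0.32 without control replicate 1 and 0.05 without control replicate 2. Stmn2 (SCG10), a microtubule-destabilising protein of growth cones, read 8.95 and 8.65 in controls and 9.26 and 9.14 in Bmp4 OE samples. Its log2 difference of 0.40 ± 0.14 (SE) corresponds to a ratio of 1.32 and did not pass (limma, adjusted p = 0.110). It was 0.55 without control replicate 1 and 0.25 without control replicate 2.

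The intermediate filament genes were split as well. Prph encodes peripherin, a filament of peripheral neurons, and its brighter probe (mMR027849) read 8.26 and 9.13 in controls and 9.69 and 9.46 in Bmp4 OE samples. The log2 difference of 0.88 ± 0.29 (SE) had the greatest size among the 14 probes and did not pass (limma, adjusted p = 0.0969). The controls themselves were 0.87 apart, a wider gap than at 99.6% of all probes, and the log2 difference was 0.45 without control replicate 1 and 1.32 without control replicate 2. The other Prph probe (mMC002702) read 7.85 and 7.81 against 7.38 and 7.74, lower in both Bmp4 OE samples. Averaged over both probes, Prph had a log2 difference of 0.31 (adjusted p = 0.208). The probes differed by 1.15 ± 0.31 (SE) in their log2 difference, with an adjusted p of 0.0571 over all pairs. Nefl, the light neurofilament chain, read 6.29 and 6.43 in controls and 6.02 and 6.04 in Bmp4 OE samples, all below the lower quartile (adjusted p = 0.0976). Of the 5 neuronal genes with several probes, 4 had probes of opposite sign. Across the array, 37.4% of 3566 genes with several probes had opposite signs at their brightest and second probes.

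The spread between the controls was wider at these probes than on the array as a whole. The median gap between the 2 controls was 0.26 over the 14 probes and 0.13 over all probes, while the median gap between the 2 Bmp4 OE samples was 0.12 and 0.13. Control replicate 1 was the lower control at the brightest probes of Elavl3, Prph, Neurod1 and Nefl and the higher one at those of Tubb3, Stmn2, Elavl4 and Pou4f1. Averaged over the brightest probes, the deviations from each gene's mean were -0.21 and -0.08 in controls and 0.16 and 0.12 in Bmp4 OE samples. The 5 other named genes whose profile over the 4 arrays lay closest to that average were Birc2, Olfr67, Cplx1, Hivep1 and Akirin2, at Euclidean distances of 0.011 to 0.027 log2 units, and none of them passed. Of these, Cplx1 encodes a synaptic complexin and Birc2 an inhibitor of apoptosis. With 4 arrays in 2 groups, many genes share such a profile.

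Relatives of the 8 genes gave a mixed picture, in which 3 of 19 rose, 2 fell and 14 did not pass. Of the 19, 4 had means below the lower quartile, with little room to see a fall. Vim and the brighter Tubb5 probe read 15.98 to 16 on all arrays, at the maximum of the scale, where a rise could not be seen. Of the named genes, 16.9% passed in limma through their brightest probe, 7.39% as higher and 9.54% as lower. Elavl2 (HuB), the remaining neuronal Elavl gene, rose from 8.78 and 8.63 to 9.28 and 9.72 (log2 intensity), 1.74-fold. Nefm, the medium neurofilament chain, fell 1.47-fold, from 7.25 and 7.07 to 6.61 and 6.60, and so reached the range below the lower quartile. The beta-tubulin gene Tubb4a rose 1.83-fold. Tubb2b, a beta-tubulin of young neurons, fell 1.52-fold, and its second probe also fell, by 0.73 on the log2 scale. The rest of the list with a call was the muscle filament gene Des, which rose. Nefh, the heavy chain, had a log2 difference of -0.03 and Ina, another neuronal filament, one of 0.69 (adjusted p = 0.0987), and neither passed. The median of the list was -0.01. With any 1 of the 4 arrays left out no probe on the table passed, that of Bmp4 included (lowest adjusted p-values of 0.138 to 0.191 in limma), so fits with 3 arrays are too small to test single calls.

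Among 33 other genes used widely by neurons, 9 rose, 2 fell (Tubb2b, named above, and Crmp1) and 22 did not pass. The 33.3% that passed stands beside 16.9% of all named genes, and the median log2 difference was 0.24. At the submitters' threshold 4 of the 33 passed, beside 1.56% of named genes as higher and 1.76% as lower. With the mean of all probes of a gene, 8 were higher and 4 lower. Syp, which encodes the vesicle protein synaptophysin, rose from 7.79 and 7.49 to 8.86 and 9.04, a 2.48-fold change. Gng3, a neuronal G-protein subunit, rose 2.53-fold, from 7.35 and 7.94 to 8.88 and 9.09. Scg2, which encodes secretogranin II of dense-core vesicles, rose 2.14-fold at its brightest probe, and its other probe, below the lower quartile, had a log2 difference of 0.07. Syt4, a synaptotagmin, rose by 0.61 on the log2 scale at its brightest probe, while its second probe had -0.55 and did not pass (adjusted p = 0.132). Other vesicle and granule genes of the list did not pass. Chga, the chromogranin A gene, had a log2 difference of -0.42 (adjusted p = 0.0616), Scg3 one of -0.17, Chgb one of 0.29 and Syt1 one of 0.51 at its brighter and -0.16 at its dimmer probe. Rtn1, a reticulon gene, had -0.42 at its brighter probe and did not pass, and its other probe fell by 0.71 on the log2 scale (adjusted p = 0.0328).

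Genes of newborn and migrating neurons went both ways. Dcx, which encodes the microtubule protein doublecortin, rose from 9.28 and 9.33 to 10.23 and 10.23, 1.90-fold. A second Dcx probe also rose, by 0.68 on the log2 scale, and the other 2 had log2 differences of 0.18 and 0.10 and did not pass. Dpysl3 (CRMP4) rose 1.70-fold, but its relative Crmp1, another mediator of semaphorin signalling, fell 2.29-fold, from 9.32 on both control arrays to 8.12 and 8.13. Uchl1 (PGP9.5), a deubiquitinating enzyme, rose 1.56-fold. Tagln3 and the zinc-finger gene Myt1 rose 1.43-fold and 1.41-fold. Gap43, a protein of growing axons, had a log2 difference of -0.03, Snap25 one of 0.24 and Mapt (tau) one of 0.37, and none of these passed. All of the calls in this list had adjusted p-values of 0.005 to 0.04 in limma. Which cells of the mandible carried the changes in this list was not tested.

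**Figure D3:**
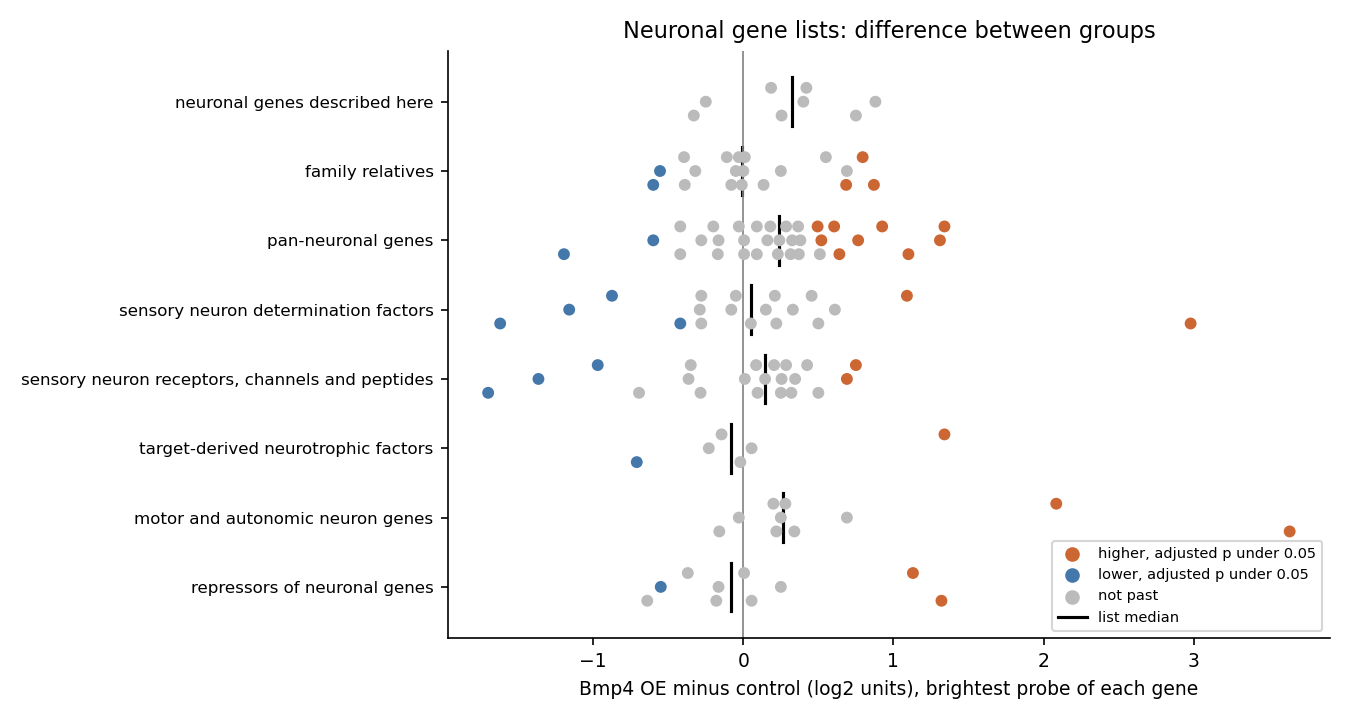
Difference between groups (Bmp4 OE minus control, log2 units) at the brightest probe of each gene, for the 8 neuronal genes and 7 lists of related genes, with orange for genes higher and blue for genes lower at an adjusted p of 0.05, grey for the rest and black bars for list medians. All 8 neuronal genes are grey, the pan-neuronal list has 9 orange and 2 blue points, and Sst, Calca and Tac1 are the 3 blue points of the sensory receptor, channel and peptide list.

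Factors that specify sensory neurons included both large rises and large falls, with 2 of 19 higher, 4 lower and 13 not past, beside 7.39% of named genes higher and 9.54% lower. With the mean of all probes of a gene, 4 were higher and 4 lower. Isl1, the LIM-homeodomain partner of Pou4f1 in sensory neurons, rose 7.89-fold, from 9.35 and 9.30 to 12.29 and 12.32. Its relative Isl2 rose 2.13-fold, from 6.37 and 6.19 to 7.57 and 7.17. Isl1 is not restricted to neurons and is also used in mandibular epithelium. Which cells carried its rise was not tested. Neurog1, the proneural factor of trigeminal neurons, read 9.47 and 9.83 in controls and 10.06 and 10.24 in Bmp4 OE samples and did not pass (adjusted p = 0.0879). The falls were in Pax3, a factor of neural crest and the ophthalmic placode (3.07-fold), Eya2 (2.23-fold), Etv4 (1.83-fold) and Eya1 (1.34-fold). None of these 4 factors is restricted to neurons.

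Of 21 receptors, channels and peptides of sensory neurons 2 rose, 3 fell and 16 did not pass, which is 23.8% past the threshold beside 16.9% of all named genes. The 3 that fell encode peptides. Sst, which encodes somatostatin, fell 3.25-fold, from 9.44 and 9.60 to 7.88 and 7.76 (limma, adjusted p = 0.00347). Calca, the gene of calcitonin gene-related peptide, fell 2.58-fold at its brightest probe, from 8.93 and 9.01 to 7.48 and 7.73, and its second probe had a log2 difference of -0.09 and did not pass. Tac1, the substance P precursor, fell 1.96-fold, from 9.87 and 9.68 to 8.74 and 8.87. Calcb, a relative of Calca, read 8.17 and 7.90 in controls and 6.98 and 7.70 in Bmp4 OE samples (adjusted p = 0.121), and Gal, the galanin gene, had a log2 difference of 0.21 (adjusted p = 0.376), and neither passed. The 2 that rose encode receptors. Ntrk3 (TrkC), the receptor for neurotrophin 3, rose 1.61-fold, and Gfra3, the co-receptor for artemin, rose 1.68-fold, from 8.22 and 8.54 to 9.31 and 8.95. Which cells carried these falls and rises was not tested.

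The other neurotrophic receptors did not pass. Ntrk2 (TrkB) had a log2 difference of 0.26, Ngfr, the low-affinity neurotrophin receptor, one of -0.29, Ret one of -0.37, Gfra1 one of 0.50 and Gfra2 one of -0.35. Of 6 measured ligands that target tissues supply to neurons, 1 rose and 1 fell, beside 7.39% of named genes higher and 9.54% lower. A list of 6 is too small to set against those shares. Nrtn (neurturin), the ligand of Gfra2, rose 2.53-fold, from 9.73 and 9.36 to 11.05 and 10.72. Bdnf, the ligand of Ntrk2, fell 1.64-fold, from 8.74 and 8.61 to 7.93 and 8.0. Gdnf and Artn had log2 differences of -0.23 and -0.15, Ntf5 one of -0.02 and Pspn one of 0.06, and these 4 did not pass.

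Among 10 regulators that restrain neuronal genes, 2 rose, 1 fell and 7 did not pass, beside 16.9% of all named genes past the threshold. Rcor2, a corepressor partner of Rest, fell 1.46-fold, and the BMP targets Id1 and Id4, which block proneural factors, rose 2.50-fold and 2.19-fold. Their relatives Id2 and Id3 had log2 differences of 0.01 and 0.06 and did not pass, and the Id3 probe read 15.87 to 16 on all arrays, at the maximum of the scale. Rest, the main silencer of neuronal genes outside neurons, had a log2 difference of -0.64 and did not pass (adjusted p = 0.122).

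**Figure D4:**
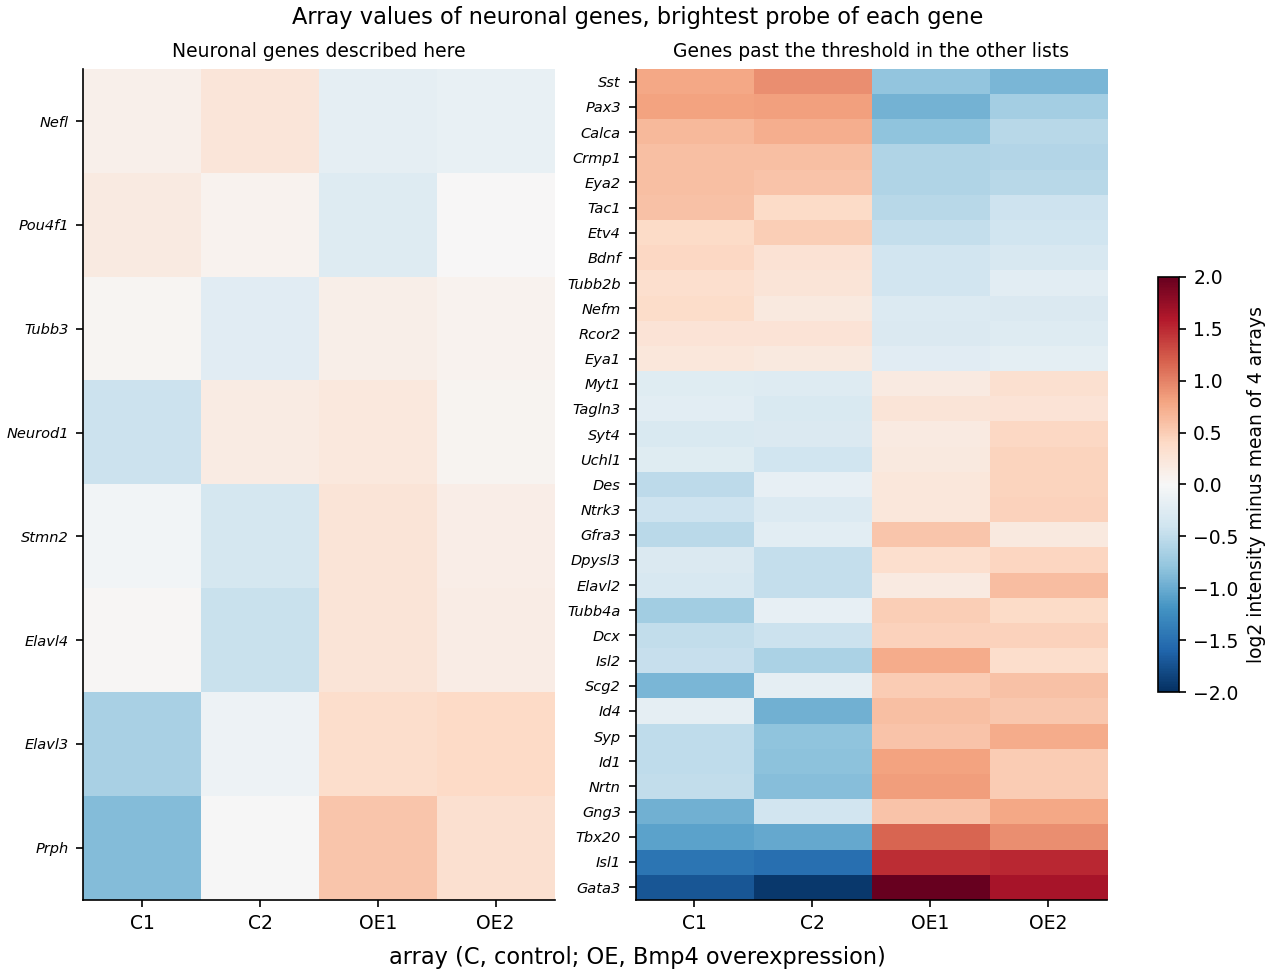
Log2 intensity minus the gene's mean over the 4 arrays at the brightest probe, for the 8 neuronal genes (left) and for the genes past the threshold in the 7 related lists (right), with 1 column per array and a scale from -2 to 2. On the left, the controls (C1 and C2) differ most from each other at Prph (by 0.87), Neurod1 (0.59) and Elavl3 (0.54), and the colours are pale. On the right, the controls also differ at Id4 (by 0.78), Scg2 (0.73) and Gng3 (0.59). The genes on the right were picked by a test that favours a small spread within groups, so the panels do not compare that spread.

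Markers of other cell types are given beside these values, to be read against the 16.9% of all named genes that passed. Of 8 measured markers of Schwann and satellite glia, 2 fell (Ednrb, 1.88-fold, and Egfl8, 1.92-fold) and 0 rose. Sox10, the defining factor of peripheral glia, had a log2 difference of -0.58 (adjusted p = 0.0572). The rest of the list had differences of 0.16 (Fabp7), 0.035 (Erbb3), -0.01 (Gfap), -0.12 (S100b) and -0.19 (Foxd3) and did not pass. The log2 of the summed intensity of the 8 glial markers was 11.26 and 11.30 in controls and 10.86 and 10.72 in Bmp4 OE samples. Of 9 skeletal muscle markers 4 rose (Des, Actc1, Tnnt1 and Myl4). The myogenic factors Myf5, Myod1, Myog and Myf6 had log2 differences of 0.49, 0.125, 0.015 and -0.005 and did not pass. The summed level of the muscle markers was 13.11 and 12.97 in controls and 13.86 and 13.88 in Bmp4 OE samples. Epithelial markers had 4 rises and 2 falls among 8, with a summed level of 15.20 and 15.27 in controls and 14.98 and 15.03 in Bmp4 OE samples. Such a sum mostly follows the brightest genes of its list. Endothelial markers had 1 rise among 7, and myeloid markers 2 rises among 8. Mesenchymal markers had 1 rise and 2 falls among 8, and erythroid markers 2 falls among 6. The part of these cell types in the neuronal values was not tested.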

How the data were processed

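RNA was amplified as aminoallyl RNA, coupled to Cy5 and hybridised with 1 sample per array, per the labels' protocols. The deposited table holds log2 intensities with 2 decimals; their range, not a label, gives the log base. The sorted values of the 4 arrays are identical (largest difference 0), so the authors had quantile-normalised them, which would hide any shift common to most genes. The scanner and the background correction are not stated in the labels. The number of arrays limits the precision.

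Gene names come from the annotation of the platform, with old symbols updated through RefSeq (GRCm38.p6): 21020 of 29922 probes had 1 symbol, 0 had several and 8902 had none. The probe with the highest mean stood for a gene in lists. All probes were fitted with limma 3.58.1 in R 4.3.3 (lmFit, eBayes, no trend, two-sided, Benjamini-Hochberg over all probes), after a test on simulated data. With 2 arrays per group the smallest exact permutation p is 0.333. Genes and lists were chosen with earlier results of these data known. Named were all probes of the 8 genes and Bmp4, up to 6 genes per direction past the threshold in each of 7 neuronal and 7 cell type lists, the neurotrophic ligands, Ntrk and Gfra receptors, relatives by family, and 5 genes of like profile; further list members without a call, the remaining pan-neuronal rises, the second Rtn1 probe and Ret were named after their values were seen. Alternatives were cyclic loess, median centring, an offset of 50, filters on dim probes, other variance priors, a replicate block, each array left out and the mean of a gene's probes.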

Additional observations from a re-analysis of the deposited data

How the results depend on the processing

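Over the alternatives to the fit, 152 of 156 values of the 14 probes stayed past no threshold and 152 kept their sign. These counts do not measure stability. Fits with 1 array left out or with the replicate block test no single call, so their values could hardly pass. Median centring, the block, the other variance priors and the filters leave each log2 difference as it was, so its sign could not change. The 4 calls were all of the bright Elavl3 probe, which made 1 probe higher under cyclic loess (0.77, adjusted p = 0.0455), a robust variance prior (0.75, adjusted p = 0.0352), a variance trend (0.75, adjusted p = 0.0275) and without probes below the median (0.75, adjusted p = 0.0476), where fewer probes are tested. The 4 changes of sign, at the dim Elavl3 probe and both Neurod1 probes, came with 1 array left out. Over those fits the dim Elavl3 probe ran from -0.095 to 0.025, the brighter Neurod1 probe from -0.04 to 0.55, the dimmer one from -0.085 to 0.015 and Ntf5 from -0.155 to 0.115. The pair of dimmer Elavl4 probes ran from -0.03 to 0.07 and the Neurod1 pair from -0.055 to 0.635. Averaging a gene's probes turned Elavl4 to -0.12 and lowered Elavl3 to 0.36, Prph to 0.31 and Neurod1 to 0.11, and moved Pou4f1 from -0.25 to -0.16. Over all probes, 1912 were higher and 2515 lower. At the study's threshold these were 364 and 422, the pan-neuronal list had 4 calls, the sensory receptor and peptide list 2, the neurotrophic list 1 and the list of relatives 0. Without probes below the median the motor and autonomic list had 1 call in place of 2. Leaving out any 1 array gave 0 to 0 probes higher and lower and 0 calls in every list and pair of probes (limma, lowest adjusted p-values of 0.138 to 0.191; 6020 to 7947 probes at an unadjusted p of 0.05), so these fits test no single call. Same-numbered arrays shared only a number (correlation of their deviations -0.07). The fit with that replicate block gave 0 calls over all probes, in each of the 7 lists and among the pairs of the neuronal genes, with 8724 probes at an unadjusted p of 0.05. Without 1 array the Bmp4 difference was 3.22 to 3.33. With the block the Bmp4 probe had an adjusted p of 0.0745 with the same log2 difference of 3.28.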

Other observations

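Of 10 measured genes of motor and autonomic neurons, 2 rose and 0 fell, a share near the 16.9% of all named genes that passed. Gata3, a factor of sympathetic neurons that is also a target of BMP signalling, read 7.78 and 7.57 in controls and 11.49 and 11.14 in Bmp4 OE samples, 12.5-fold higher. Tbx20, a T-box factor of cranial motor neurons and heart, rose 4.24-fold, from 6.10 and 6.15, below the lower quartile, to 8.33 and 8.09. The other 8 did not pass. Chat, which makes acetylcholine, and Mnx1, a motor neuron factor, lay below the lower quartile on all arrays, and Th and Dbh, which make catecholamines, had log2 differences of 0.34 and 0.28.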
